A study of Homo sapiens with 10 samples.

Results

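PRAP1, CRYM, ARHGAP36, CILP2 and DCN were examined, 5 genes of the 23585 kept from expression tables of the human neuroblastoma line SH-SY5Y. They were chosen because their FPKM was much higher with an siRNA directed at LncND, a long non-coding RNA, than with a scrambled siRNA, so the values of that comparison are given as a description, without a test. SH-SY5Y cells, grown in DMEM/F12 medium with serum, were transfected with 100 nM LncND siRNA (3 libraries) or with a scrambled siRNA (3 libraries), and in a second set either with 50 nM miR-143-3p mimic (2 libraries) or with scrambled miRNA (2 libraries); the doses of the scrambled molecules were not stated in the labels. Poly(A) RNA was sequenced 72 h after transfection. The labels number the replicates without saying that they were separate cultures, so each p-value covers the spread among libraries only, and that spread may be technical. All cells came from 1 line, and no row of the tables carried the name LncND, so the level of the siRNA's target was not analysed here.

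The 5 genes have unlike roles. PRAP1 encodes a secreted proline-rich acidic protein best known from the epithelium of gut and uterus, where it binds lipid and helps the assembly of triglyceride-rich lipoproteins; it is also known as a target of the tumour suppressor p53. CRYM encodes mu-crystallin, a cytosolic protein that binds the thyroid hormone T3 and also acts as a ketimine reductase. ARHGAP36 encodes a protein known for binding and inhibiting the catalytic subunit of protein kinase A (PKA), which raises GLI activity in the Hedgehog pathway. CILP2 encodes a secreted glycoprotein of the cartilage matrix. DCN encodes decorin, a small leucine-rich proteoglycan that coats collagen fibrils and binds TGF-β and several growth factor receptors.

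miR-143-3p is a microRNA known from smooth muscle and other mesenchymal cells; a microRNA lowers messages by pairing through its seed, bases 2 to 8, with their 3′ UTRs. Its mature sequence from RefSeq (GRCh38.p14, chr5:149428978-149428998, plus strand, 21 nt) is printed with the seed in capitals. The mimic is the treatment that the rule of choice, a rise with LncND siRNA, did not name. For DCN the single match is printed below it, with the matching bases in capitals.

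hsa-miR-143-3p: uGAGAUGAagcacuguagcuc

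DCN 3′ UTR match: ttttcttctcttttTCATCTCcc

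In the longest annotated 3′ UTRs of GENCODE v29 (GRCh38), which ran to 243 nt for PRAP1, 263 nt for CRYM, 1098 nt for ARHGAP36, 643 nt for CILP2 and 5574 nt for DCN, the letters TCATCTC (the match of the seed) and CATCTCA (the match of bases 2 to 7 followed by A) were searched on the message strand. Neither was present in those of PRAP1, CRYM, ARHGAP36 and CILP2. DCN held TCATCTC once, with the letters CATCTC of that match starting at position 1608, and only 1 of its 12 annotated transcripts reached it. Of 11194 genes tested with the mimic that had an annotated 3′ UTR, 2780 (24.8%) held such a match. A match is a description of letters and not of a bound site.

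PRAP1 had the largest log2 difference with LncND siRNA apart from 3 short RNA genes. Its level was 44.3, 48.0 and 44.4 FPKM in the LncND siRNA libraries, against 3.07, 3.33 and 2.36 FPKM in the scrambled siRNA libraries. FPKM counts fragments relative to transcript length and to the mapped total of a library, so levels of different genes can be set side by side. All 3 LncND siRNA libraries were high and the groups lay far apart. The means were 45.6 ± 2.14 FPKM with LncND siRNA and 2.92 ± 0.498 FPKM with scrambled siRNA (SD, n = 3 each), a 15.6-fold ratio, or 3.58 ± 0.082 (SE) as a difference in log2(FPKM + 1). In the miRNA table PRAP1 had 6.28 and 5.40 FPKM with the mimic, against 9.44 and 9.12 FPKM with scrambled miRNA. Both mimic libraries were below both scrambled miRNA libraries, and all 4 were above the 3 scrambled siRNA libraries.

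CRYM stood at 29.5, 28.3 and 30.3 FPKM in the LncND siRNA libraries, against 3.84, 3.74 and 3.997 FPKM in the scrambled siRNA libraries. The groups did not overlap, and the 6 libraries were tight within each group. Mean levels were 29.3 ± 1.03 FPKM with LncND siRNA and 3.86 ± 0.128 FPKM with scrambled siRNA (SD, n = 3 each), a 7.60-fold ratio and a log2 difference of 2.64 ± 0.042 (SE). CRYM had 3.48 and 2.85 FPKM in the mimic libraries, against 5.18 and 5.36 FPKM in the scrambled miRNA libraries. The mimic libraries were again the lower ones, and here they lay below the scrambled siRNA libraries too.

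ARHGAP36 reached 59.7, 60.5 and 57.3 FPKM with LncND siRNA, against 11.2, 11.2 and 10.7 FPKM with scrambled siRNA. It was the most abundant of the 5 genes in the LncND siRNA libraries, with no overlap between the groups. The means of 59.1 ± 1.677 FPKM with LncND siRNA and 11.04 ± 0.273 FPKM with scrambled siRNA (SD, n = 3 each) gave a 5.36-fold ratio and a log2 difference of 2.32 ± 0.038 (SE). With the mimic ARHGAP36 had 20.3 and 18.8 FPKM, against 23.6 and 22.01 FPKM with scrambled miRNA. Here the mimic and scrambled miRNA libraries stood close to each other, without overlapping, and all 4 were well above the scrambled siRNA libraries.

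CILP2 was the lowest of the 5 in every group. The LncND siRNA libraries had 9.41, 9.74 and 9.17 FPKM, against 1.21, 1.34 and 1.16 FPKM in the scrambled siRNA libraries. All LncND siRNA libraries were high, and the scrambled siRNA libraries lay near the limit of 1 FPKM that a gene's mean had to reach to be tested. Means of 9.44 ± 0.284 FPKM with LncND siRNA and 1.23 ± 0.0917 FPKM with scrambled siRNA (SD, n = 3 each) gave a 7.65-fold ratio, while the log2 difference was 2.23 ± 0.051 (SE), since the added 1 FPKM understates the change of low genes. CILP2 had 2.41 and 2.06 FPKM with the mimic, against 3.17 and 2.84 FPKM with scrambled miRNA, so that the lowest scrambled miRNA library was above the highest mimic library.

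DCN had 50.7, 53.8 and 54.4 FPKM in the LncND siRNA libraries, against 17.3, 16.1 and 15.02 FPKM in the scrambled siRNA libraries. It was already expressed at a middle level with scrambled siRNA, and its ratio was the smallest of the 5. DCN averaged 52.97 ± 1.98 FPKM with LncND siRNA and 16.1 ± 1.13 FPKM with scrambled siRNA (SD, n = 3 each), a 3.29-fold ratio and a log2 difference of 1.66 ± 0.052 (SE). With the mimic DCN had 7.98 and 7.69 FPKM, against 12.01 and 10.9 FPKM with scrambled miRNA. Unlike the other 4 genes, DCN was lower in the scrambled miRNA libraries than in every scrambled siRNA library.

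**Figure D1:**
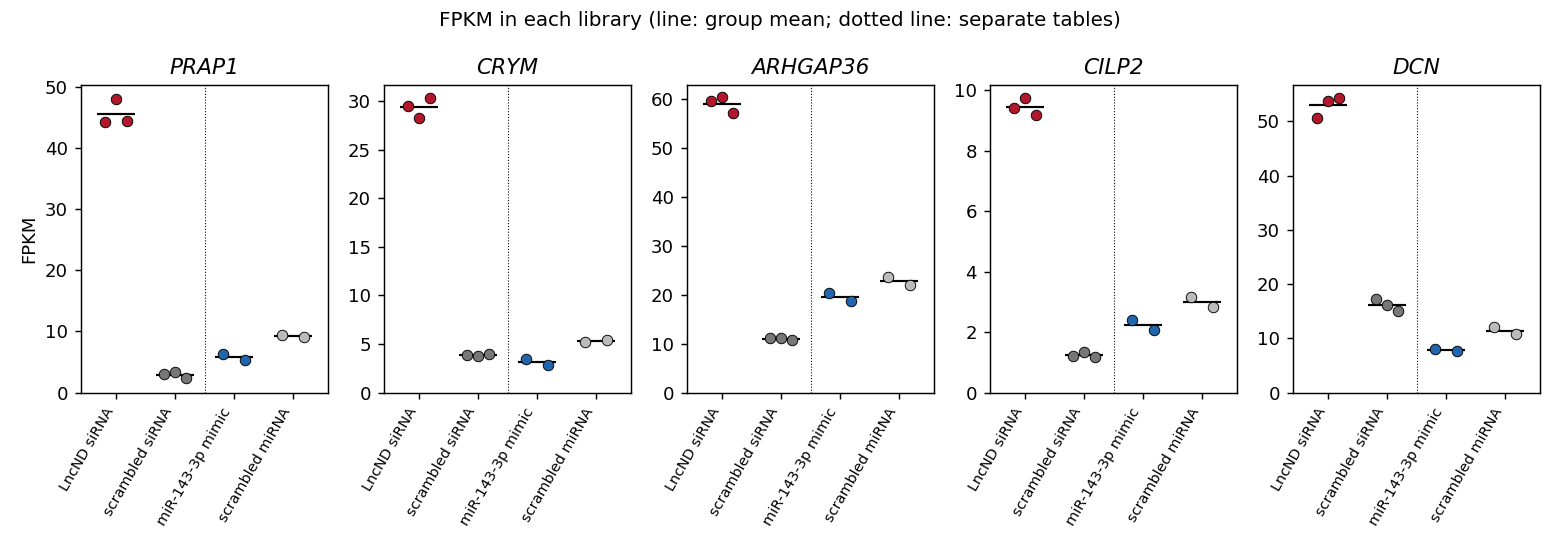
FPKM (y axis, linear, each panel on its own scale) of the 5 genes in all 10 libraries, grouped on the x axis as LncND siRNA, scrambled siRNA, miR-143-3p mimic and scrambled miRNA; points are libraries and bars group means. The 3 LncND siRNA libraries are the highest in each panel, and the 2 mimic libraries lie below the 2 scrambled miRNA libraries.

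In all 5 genes the 3 LncND siRNA libraries were above the 3 scrambled siRNA libraries, which held for 38.7% of the 12601 genes tested in that table. The choice of the genes fixed this, so nothing is read from it. Ordered by log2 difference among the tested genes, PRAP1 stood at rank 4, CRYM at 5, ARHGAP36 at 9, CILP2 at 13 and DCN at 42. Ranks 1, 2, 3 and 6 were held by short RNA genes (RNY4, SNORD116-4, SNORD104 and SNORD99), for which FPKM is unreliable because a fragment is longer than the gene. The ranks between the 5 genes included KCNT1, a potassium channel, NPB, a neuropeptide, GDF15, a stress cytokine, STMN4, a neuronal microtubule regulator, and ANGPTL4, an inhibitor of lipoprotein lipase.

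The order of the 5 levels differed only in the scrambled siRNA group. With LncND siRNA it ran ARHGAP36, DCN, PRAP1, CRYM, CILP2, and with scrambled siRNA it ran DCN, ARHGAP36, CRYM, PRAP1, CILP2. In the mimic and the scrambled miRNA libraries alike it ran ARHGAP36, DCN, PRAP1, CRYM, CILP2. No neighbours in these orders overlapped between libraries of a group. Against all tested genes, the mean level of PRAP1 was at percentile 87.4 with LncND siRNA and 15.8 with scrambled siRNA, while that of CILP2 was at percentile 44.8 with LncND siRNA and 3.62 with scrambled siRNA.

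The rule of choice, a large rise with LncND siRNA, did not name the mimic comparison. The genes were chosen with earlier results of these data known, however, so the mimic p-values may not be independent of the choice. In the mimic comparison all 5 genes fell, by limma on log2(FPKM + 1) with Benjamini-Hochberg adjustment over 12558 genes. The mimic lowered 38.6% of all genes tested, and the libraries of the mimic lay below those of scrambled miRNA without overlap in 48.2%, so 5 of 5 is to be read against a large background; with median-ratio scaling 3931 genes rose and 4052 fell, against 3094 and 4853 in the fit given here. CRYM was 39.9% lower by the ratio of means and fell by 0.59 ± 0.085 (SE) on the log2 scale, with an adjusted p of 0.00021 by limma. PRAP1 was 37.1% lower and also fell by 0.59 ± 0.073 (adjusted p = 8.12e-05, limma). DCN was 31.5% lower and fell by 0.49 ± 0.064 (adjusted p = 0.000111, limma). CILP2 was 25.4% lower and fell by 0.31 ± 0.087 (adjusted p = 0.0122, limma), and ARHGAP36 was 14.2% lower and fell by 0.21 ± 0.057 (adjusted p = 0.00892, limma). Both libraries of the mimic were lower than both of scrambled miRNA in each gene. Set among all genes, 8.97% had a lower mimic difference than PRAP1, 8.85% a lower one than CRYM, 12.97% than DCN, 24.5% than CILP2 and 33.2% than ARHGAP36.

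Some of these calls rested on 1 library or 1 setting. ARHGAP36 did not pass without scrambled miRNA replicate 1 (adjusted p = 0.0717, limma) or with median-ratio scaling (0.0556), quantile normalization (0.0513) or no filter on low levels (0.142), and its adjusted p ranged from 0.00194 to 0.142 over the alternatives. CILP2 did not pass without mimic replicate 2 (0.0663), without scrambled miRNA replicate 1 (0.0731) or with no filter (0.143), over a range of 0.00637 to 0.143 by limma. CRYM did not pass with no filter (0.0565, range 5.12e-05 to 0.0565, limma). PRAP1 and DCN passed under every alternative, but narrowly with no filter (adjusted p = 0.0429 and 0.0365, limma). The direction was the same under every alternative run for the 5 genes.

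Of 299 other genes that rose by at least 1 on the log2 scale with LncND siRNA, 271 were also tested with the mimic. Of these 271, 82 (30.3%) fell with the mimic, 118 (43.5%) rose and 71 (26.2%) did not pass the limma test. Their median mimic difference was 0.12, against -0.062 over all genes tested. Over all genes 38.6% fell and 24.6% rose with the mimic. Some of the 299 genes, such as ANGPTL4 at 0.613 FPKM with scrambled siRNA, passed the filter only through their LncND siRNA level. Among the 271 genes a large rise with LncND siRNA was not in general joined by a fall with the mimic. Genes with a seed match fell with the mimic in 1286 of 2780 cases (46.3%), with a median difference of -0.12, and genes without one in 3104 of 8414 (36.9%), with a median of -0.048. PRAP1, CRYM, ARHGAP36 and CILP2 belonged to the genes without a match.

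The scrambled controls differed from each other in several of the 5 genes. Their tables were normalized separately, so values are set side by side with no test. The scrambled siRNA libraries were also used to choose the genes, which favours genes that are low in them. The shares of all genes given here and in the paragraph that follows are therefore a description and no measure of rarity. PRAP1 averaged 9.28 ± 0.225 FPKM with scrambled miRNA (SD, n = 2) and 2.92 ± 0.498 FPKM with scrambled siRNA (SD, n = 3), a 3.18-fold ratio and a log2 difference of 1.40. Only 0.535% of all genes differed by as much in either direction. CILP2 averaged 3.00 ± 0.235 FPKM with scrambled miRNA, 2.43-fold its mean with scrambled siRNA (log2 difference 0.84), and ARHGAP36 averaged 22.8 ± 1.10 FPKM, a 2.06-fold ratio (0.98). Differences as large in size were found in 3.80% of genes for CILP2 and 2.05% for ARHGAP36.

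CRYM and DCN differed less between the controls. CRYM averaged 5.27 ± 0.128 FPKM with scrambled miRNA, 1.37-fold its scrambled siRNA mean (log2 difference 0.37), and 28.4% of genes differed as much. DCN averaged 11.4 ± 0.809 FPKM with scrambled miRNA, 0.710 of its scrambled siRNA mean (log2 difference -0.46), and 19.0% of genes differed as much. Over all genes the median difference between the controls was 0.074 and the 5th to 95th percentiles ran from -0.49 to 0.70. The control libraries did not overlap in any of the 5 genes, nor in 80.1% of all genes.

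The LncND siRNA libraries stood above all the others. The choice of the genes used these libraries, so the ratios in this paragraph are a description only. The lowest of them was 4.69 times the highest of the other 7 libraries for PRAP1, 5.27 times for CRYM, 2.43 times for ARHGAP36, 2.90 times for CILP2 and 2.93 times for DCN. Set beside scrambled miRNA in place of scrambled siRNA, again across separately normalized tables, the LncND siRNA mean was 4.91-fold for PRAP1, 5.57-fold for CRYM, 2.60-fold for ARHGAP36, 3.15-fold for CILP2 and 4.63-fold for DCN. PRAP1 thus had the largest ratio against scrambled siRNA and CRYM the largest against scrambled miRNA.

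**Figure D2:**
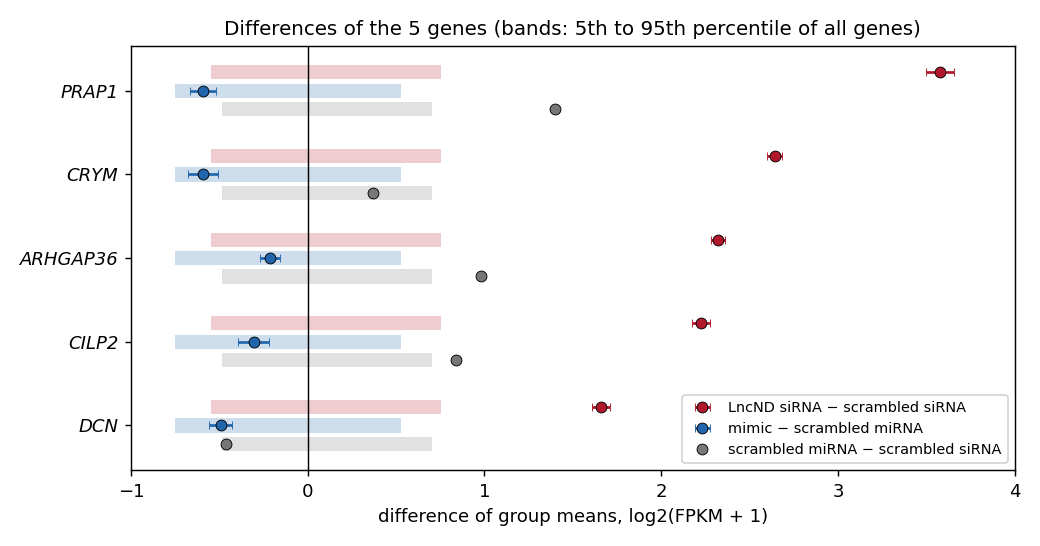
Differences of group means in log2(FPKM + 1) (x axis) for the 5 genes (y axis). They are LncND siRNA minus scrambled siRNA, mimic minus scrambled miRNA, and scrambled miRNA minus scrambled siRNA. Error bars are SE, with none drawn for the difference between the controls, and bands span the 5th to 95th percentile of all genes. The siRNA differences of 1.66 to 3.58 lie right of their band, the mimic differences lie inside theirs, and PRAP1, ARHGAP36 and CILP2 exceed the band between the controls.

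Facts of the libraries that bear on these values are few. Depth, estimated from the smallest steps of the FPKM scale, was 25.6 to 43.8 M fragments for the siRNA libraries and 13.8 to 37.5 M for the miRNA libraries; at these depths CILP2 would be covered by at least 28.5 fragments per kilobase, CRYM by at least 39.3 and PRAP1 by at least 74.5. LncND siRNA replicate 1 stood apart, with RNY4 listed at 1224670 FPKM. Without that library the log2 difference of PRAP1 was 3.596, that of CRYM 2.64, that of ARHGAP36 2.31, that of CILP2 2.23 and that of DCN 1.69. Of 12 noradrenergic neuroblastoma markers 11 were tested, among them DBH, PHOX2A and HAND2, while TH, the first enzyme of catecholamine synthesis, was near 0 and not tested. In bulk RNA, fewer cells of a type and less RNA per cell cannot be told apart.

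PRAP1 was read beside genes of lipoprotein assembly and of the p53 response. The lists here and in the paragraphs that follow were put together with earlier results of the data known, and their counts describe these libraries. The counts of genes that rose or fell include some with a mean under 1 FPKM in 1 group. Such genes passed the filter on low levels only through the group where they were high, which favoured a difference. These were DIO3, GAS1, MATN2, FAS and CLDN4 with LncND siRNA, and DGAT2, GDF15, FAS, COL9A3, S100A4 and a thyroid hormone gene with the mimic. DGAT2 was also tested in this way with LncND siRNA, at 1.13 FPKM against 0.939 FPKM with scrambled siRNA, and did not pass. MTTP, the lipid transfer protein, and APOB, the core apolipoprotein, were near 0 and not tested. Of 10 genes in the lipoprotein list 5 were tested. With LncND siRNA 4 rose (36.6% of all genes rose). With the mimic 3 fell and 1 rose (38.6% and 24.6% of all genes). PLTP, which moves phospholipid between lipoproteins, had 59.1 ± 0.402 FPKM with LncND siRNA and 25.1 ± 0.954 FPKM with scrambled siRNA (SD, n = 3 each), a log2 rise of 1.203 (adjusted p = 8.03e-09, limma). DGAT2, an enzyme of triglyceride synthesis, had 1.65 ± 0.122 FPKM with the mimic and 0.594 ± 0.0548 FPKM with scrambled miRNA (SD, n = 2 each), and was the gene of the list counted as rising with the mimic.

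All 21 tested p53 targets other than PRAP1 rose with LncND siRNA, with a median log2 difference of 1.07, and 16 fell and 2 rose with the mimic, with a median of -0.51. The median over all genes was 0.024 with LncND siRNA and -0.062 with the mimic. Over all genes 36.6% rose with LncND siRNA, and 38.6% fell and 24.6% rose with the mimic. CDKN1A, the cell cycle inhibitor p21, had 303 ± 10.6 FPKM with LncND siRNA and 81.9 ± 2.83 FPKM with scrambled siRNA (SD, n = 3 each), a rise of 1.87 (adjusted p = 2.56e-09, limma). With the mimic it had 47.6 ± 2.02 FPKM, against 123 ± 0.623 FPKM with scrambled miRNA (SD, n = 2 each), so it fell by 1.35 (adjusted p = 3.17e-08, limma). GDF15 rose by 2.28 with LncND siRNA, and had 0.570 ± 0.235 FPKM with the mimic and 6.84 ± 0.742 FPKM with scrambled miRNA. The p53 targets SESN1 and TP53INP1 rose with the mimic, by 0.16 and 0.24.

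CRYM was read beside genes that carry, convert and sense thyroid hormone. Of 12 tested with LncND siRNA 5 rose and 4 fell (36.6% and 30.3% of all genes), with a median of -0.027. Of 13 tested with the mimic 5 rose and 5 fell (24.6% and 38.6% of all genes). KLF9, a transcription factor induced by T3, had 3.99 ± 0.287 FPKM with LncND siRNA and 2.499 ± 0.110 FPKM with scrambled siRNA (SD, n = 3 each), a rise of 0.51 (adjusted p = 2.68e-05, limma). DIO3, which inactivates T3, rose by 0.46 with the mimic, and had 1.36 ± 0.0760 FPKM with LncND siRNA and 0.790 ± 0.0516 FPKM with scrambled siRNA. HR, a corepressor of the hormone receptors, fell by 1.12 with the mimic, to 2.15 ± 0.105 FPKM against 5.85 ± 0.0633 FPKM with scrambled miRNA. The receptor THRA did not pass the test in either comparison, with differences of 0.05 and -0.12.

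ARHGAP36 was read beside the Hedgehog pathway and PKA. Of 9 Hedgehog genes tested with LncND siRNA 1 rose and 4 fell (36.6% and 30.3% of all genes). Of 8 tested with the mimic 4 rose and 1 fell (24.6% and 38.6% of all genes). SMO, the signal transducer, had 17.03 ± 0.543 FPKM with LncND siRNA and 25.9 ± 0.688 FPKM with scrambled siRNA (SD, n = 3 each), so it fell by 0.58 (adjusted p = 8.06e-07, limma), and it also fell with the mimic, by 0.46. GPR161, a receptor that restrains the pathway through PKA, had 11.7 ± 0.28 FPKM with LncND siRNA and 15.8 ± 0.205 FPKM with scrambled siRNA, so it fell by 0.41, while with the mimic it had 13.6 ± 0.516 FPKM and with scrambled miRNA 8.20 ± 0.0817 FPKM, a rise of 0.67. PTCH1, a receptor and target gene of the pathway, did not pass in either comparison (-0.11 and 0.12). GLI1 and GLI2 were below the level tested in both comparisons. They had 0.219 and 0.846 FPKM with LncND siRNA, against 0.268 and 1.08 FPKM with scrambled siRNA. With the mimic they had 0.0838 and 0.523 FPKM, against 0.479 and 1.16 FPKM with scrambled miRNA.

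Among 9 tested PKA genes 3 rose and 2 fell with LncND siRNA (36.6% and 30.3% of all genes). With the mimic 1 rose and 3 fell (24.6% and 38.6% of all genes). PKIA, a peptide inhibitor of the catalytic subunits, had 16.5 ± 0.378 FPKM with LncND siRNA and 9.49 ± 0.126 FPKM with scrambled siRNA (SD, n = 3 each), a rise of 0.73 (adjusted p = 1.3e-07, limma). The regulatory subunits PRKAR2B and PRKAR1A rose by 0.49 and 0.41. PRKACA, the main catalytic subunit, had a difference of 0.01 that did not pass with LncND siRNA; with the mimic it fell by 0.40, to 27.5 ± 0.138 FPKM against 36.6 ± 0.807 FPKM with scrambled miRNA.

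CILP2 was read beside other cartilage matrix genes, of which 17 had a row and most were too low to test. With LncND siRNA 6 were tested, 5 rose and 1 fell, with a median of 0.64 (36.6% of all genes rose and 30.3% fell). With the mimic 5 were tested, 3 fell and the other 2 did not pass, with a median of -0.43 (38.6% of all genes fell). MATN2, a matrilin of the matrix, had 3.15 ± 0.0600 FPKM with LncND siRNA and 0.456 ± 0.043 FPKM with scrambled siRNA (SD, n = 3 each), so that it was tested only through its level with LncND siRNA. COL9A2, a collagen IX chain, had 5.38 ± 0.0308 FPKM with LncND siRNA and 2.21 ± 0.0531 FPKM with scrambled siRNA, a rise of 0.99, and with the mimic it fell by 0.89, to 1.01 ± 0.0337 FPKM against 2.73 ± 0.147 FPKM with scrambled miRNA. COL11A2 rose by 1.00 with LncND siRNA and fell by 0.43 with the mimic. MATN3 was the exception, at 1.96 ± 0.171 FPKM with LncND siRNA and 5.30 ± 0.213 FPKM with scrambled siRNA, so it fell by 1.09 (adjusted p = 1.61e-07, limma). The close paralogue CILP had 0.231 FPKM with LncND siRNA, against 0.161 FPKM with scrambled siRNA, and was not tested.

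DCN was read beside its own family and its binding partners. Of 15 other small leucine-rich proteoglycans only LUM and TSKU were tested. LUM, lumican, had 22.8 ± 0.398 FPKM with LncND siRNA and 20.7 ± 1.44 FPKM with scrambled siRNA (SD, n = 3 each), a rise of 0.13 that passed narrowly (adjusted p = 0.0343, limma) and did not pass under 7 of the alternatives. With the mimic LUM had 17.8 ± 0.665 FPKM, against 34.8 ± 0.671 FPKM with scrambled miRNA (SD, n = 2 each), so it fell by 0.93 (adjusted p = 3.94e-07, limma). TSKU fell with the mimic by 0.65 and did not pass with LncND siRNA (0.04).

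Of 9 tested ligands and receptors of decorin 3 rose and 5 fell with LncND siRNA (36.6% and 30.3% of all genes). With the mimic 2 rose and 5 fell (24.6% and 38.6% of all genes). TGFB1 had 11.3 ± 0.509 FPKM with LncND siRNA and 6.31 ± 0.138 FPKM with scrambled siRNA, a rise of 0.75, and with the mimic it had 7.60 ± 0.551 FPKM, against 13.4 ± 0.975 FPKM with scrambled miRNA, so it fell by 0.74. FN1, fibronectin, fell by 0.97 with LncND siRNA, to 11.5 ± 1.10 FPKM against 23.4 ± 0.485 FPKM with scrambled siRNA. VEGFA, a growth factor of blood vessels, rose by 1.12 with the mimic, to 92.8 ± 0.287 FPKM against 42.03 ± 0.197 FPKM with scrambled miRNA, and fell by 0.40 with LncND siRNA.

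Markers of other cell types were summed beside DCN and PRAP1. The 15 fibroblast and mesenchymal markers summed to 649.5 to 658.7 FPKM with LncND siRNA and 599 to 612 FPKM with scrambled siRNA, and to 557 to 559 FPKM with the mimic and 695 to 698 FPKM with scrambled miRNA. Of the 11 tested, 5 rose and 4 fell with LncND siRNA (36.6% and 30.3% of all genes). With the mimic 1 rose and 9 fell (24.6% and 38.6% of all genes). ACTA2, smooth muscle actin, had 28.0 ± 1.39 FPKM with LncND siRNA and 6.99 ± 0.574 FPKM with scrambled siRNA, a rise of 1.86, and fell by 1.05 with the mimic. THY1, a surface glycoprotein of fibroblasts and neurons, rose by 0.76 with LncND siRNA and fell by 0.49 with the mimic, and so moved in the same directions as DCN. PDGFRB, a receptor of fibroblasts and pericytes, fell in both, by 0.50 with LncND siRNA and by 1.49 with the mimic. VIM and TWIST1, the most abundant of the list, made up most of the sums, and PRRX1 and POSTN were at or near the lowest value. The 12 epithelial markers summed to 4.38 to 4.67 FPKM with LncND siRNA and 1.62 to 1.676 FPKM with scrambled siRNA, and to 1.84 to 1.85 FPKM with the mimic and 2.25 to 2.31 FPKM with scrambled miRNA; only CLDN4 passed the filter, in the siRNA table and through its LncND siRNA level, with 2.17 ± 0.230 FPKM against 0.621 ± 0.0504 FPKM with scrambled siRNA, while VIL1 and CDX2 were at or near 0. Their part in the values of DCN and PRAP1 was not tested.

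The nearest tested genes on each side moved like the 5 genes in some cases and not in others. PRAP1 lies at chr10:135160843-135166187 in hg19. CALY, a neuronal vesicle protein gene 10.4 kb away, had 3.78 ± 0.384 FPKM with LncND siRNA and 1.79 ± 0.229 FPKM with scrambled siRNA, a rise of 0.78 (adjusted p = 1.22e-05, limma), and fell by 0.66 with the mimic. On the other side FUOM, a fucose mutarotase gene 2.47 kb away, rose by 0.40 with LncND siRNA (14.5 ± 1.87 FPKM, against 10.7 ± 1.08 FPKM with scrambled siRNA, adjusted p = 0.00226, limma) and fell by 1.00 with the mimic (7.76 ± 0.508 FPKM, against 16.6 ± 1.08 FPKM with scrambled miRNA). ZNF511, 34.2 kb away, which RefSeq joins to PRAP1 in an annotated readthrough gene, fell with LncND siRNA by 0.52, to 18.2 ± 1.37 FPKM against 26.5 ± 1.87 FPKM with scrambled siRNA. PRAP1 and ZNF511 could share reads through that readthrough, and the strand setting of the quantification was not given in the sources used here.

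CRYM lies at chr16:21269838-21314404, overlapped by CRYM-AS1, whose mean stayed between 0.0771 and 0.21 FPKM in the 4 groups and was not tested. TMEM159, 77.9 kb away, rose by 0.85 with LncND siRNA and did not pass with the mimic (-0.17), while LYRM1, 334 kb away, rose by 0.68 with LncND siRNA and fell by 0.51 with the mimic. ARHGAP36 lies at chrX:130192215-130223857; IGSF1, a membrane protein of the immunoglobulin family 184 kb away, had 14.6 ± 0.297 FPKM with LncND siRNA and 7.84 ± 0.0876 FPKM with scrambled siRNA, a rise of 0.82 (adjusted p = 7.16e-08, limma), and fell with the mimic by 0.36. DCN lies at chr12:91539034-91576806 with LUM 33.5 kb away. BTG1, 957 kb away on the other side, rose by 0.89 with the mimic and had a difference of -0.01 with LncND siRNA that did not pass.

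CILP2 lies at chr19:19649073-19657468, and YJEFN3, a gene of the YjeF domain family, ends 0.68 kb from it on the same strand. YJEFN3 had 20.2 ± 0.343 FPKM with LncND siRNA and 5.27 ± 0.373 FPKM with scrambled siRNA (SD, n = 3 each), a rise of 1.76 ± 0.049 (adjusted p = 5.1e-09, limma). With the mimic it had 10.9 ± 0.0372 FPKM, against 6.36 ± 0.608 FPKM with scrambled miRNA (SD, n = 2 each), a rise of 0.70 (adjusted p = 1.93e-05, limma). CILP2 and YJEFN3 therefore both stood higher with LncND siRNA, while with the mimic CILP2 fell and YJEFN3 rose.

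**Figure D3:**
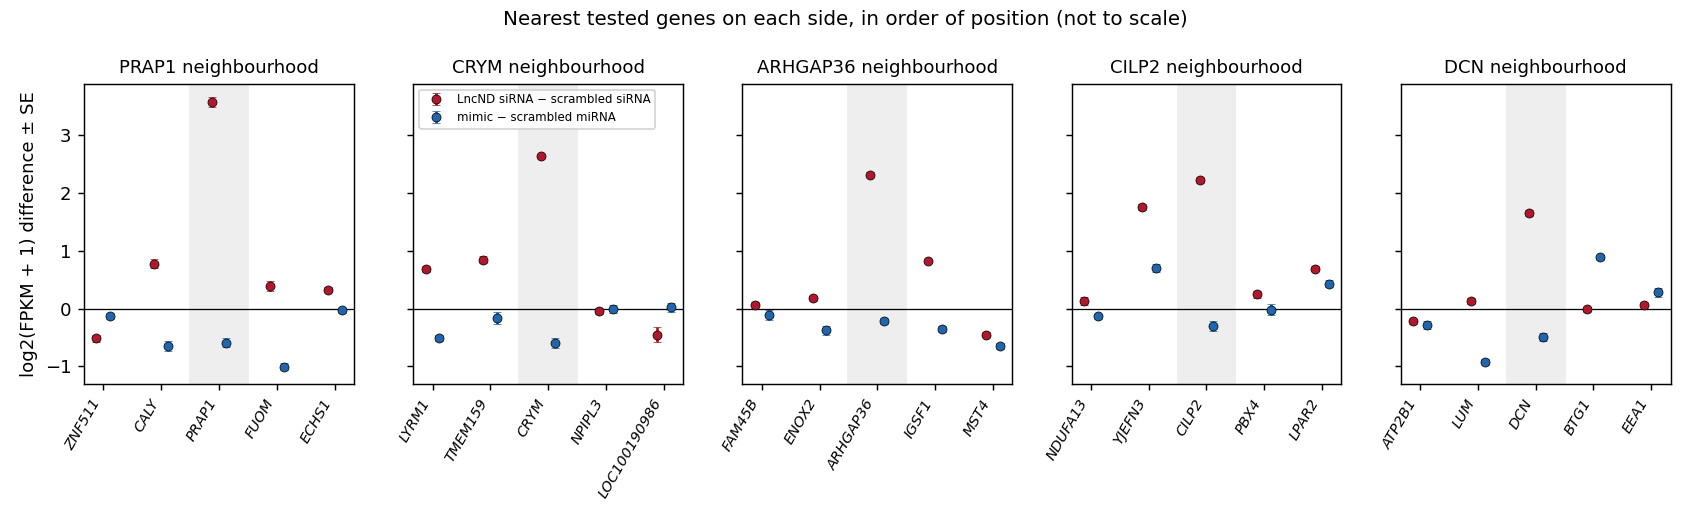
Differences in log2(FPKM + 1) ± SE (y axis) of each of the 5 genes (shaded) and its 2 nearest tested genes on each side, in order of position and not to scale (x axis). YJEFN3 beside CILP2 has the largest LncND siRNA difference among the neighbours, 1.76, and lies on the other side of 0 from CILP2 with the mimic.

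The gene most like each of the 5 was found by the root mean square distance between profiles over the 10 libraries, each profile being log2(FPKM + 1) minus the mean of the scrambled libraries of its table; the profiles share the siRNA difference that chose the genes, so the distances are a description. CILP2 and ARHGAP36 were each other's nearest, at 0.0713, against a median distance of 1.27 from ARHGAP36 to all genes. PHLDA3, a p53 target that restrains AKT, was nearest to DCN at 0.0603, followed by PLK2 at 0.129 and FSTL3 at 0.141. CRYM was nearest to ARHGAP36 at 0.253 and then to ANGPTL4 at 0.270, and PRAP1 was nearest to CRYM at 0.525.

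Because ARHGAP36 and CILP2 had the most alike profiles among the 5 genes and YJEFN3 moved beside CILP2, the promoters of these genes are printed from RefSeq (GRCh38.p14, 250 bases before to 50 after the start, plus strand). Capitals mark GC boxes, GGGCGG on either strand, which lie in 44.95% of the 35116 promoters of that table. ARHGAP36 start 2 spans chrX:131082185-131082484, CILP2 spans chr19:19538015-19538314 and YJEFN3 spans chr19:19528661-19528960.

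ARHGAP36 start 2: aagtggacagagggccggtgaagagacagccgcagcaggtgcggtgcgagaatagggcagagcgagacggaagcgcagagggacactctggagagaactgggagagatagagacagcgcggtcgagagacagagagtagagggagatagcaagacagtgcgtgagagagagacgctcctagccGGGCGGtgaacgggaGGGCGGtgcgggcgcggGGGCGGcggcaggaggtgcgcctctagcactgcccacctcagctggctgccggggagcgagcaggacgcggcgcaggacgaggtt

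CILP2: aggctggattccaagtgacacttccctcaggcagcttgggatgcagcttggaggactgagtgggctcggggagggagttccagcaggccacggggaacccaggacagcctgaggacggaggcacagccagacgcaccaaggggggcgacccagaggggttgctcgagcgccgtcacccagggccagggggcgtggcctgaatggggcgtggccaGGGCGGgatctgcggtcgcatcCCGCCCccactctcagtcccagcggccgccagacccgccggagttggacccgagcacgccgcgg

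YJEFN3: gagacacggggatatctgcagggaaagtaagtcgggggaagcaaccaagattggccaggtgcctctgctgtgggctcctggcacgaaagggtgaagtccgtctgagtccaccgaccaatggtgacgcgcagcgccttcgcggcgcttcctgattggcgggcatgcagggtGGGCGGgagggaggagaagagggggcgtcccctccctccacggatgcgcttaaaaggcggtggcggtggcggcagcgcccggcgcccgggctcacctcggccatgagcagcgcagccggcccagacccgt

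ARHGAP36 has another start in the table, whose promoter, not printed, held 1 GC box and 23 CpG dinucleotides; start 2 was printed as the one with more GC boxes. The promoter of ARHGAP36 start 2 held 3 GC boxes and 28 CpG dinucleotides, that of CILP2 2 and 22, and that of YJEFN3 1 and 27, with a GC content of 66.3%, 70.3% and 67.7%. The medians over all promoters were 14 CpG dinucleotides and 58.7% GC. Neither TATAAA, present in 11.5% of all promoters, nor the p53 half-site, present in 6.63%, was found on either strand in these windows. The promoter sequences used here held no entry for PRAP1, CRYM or DCN, so the promoters of these genes were not searched.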

How the data were processed

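Poly(A) RNA-seq (TruSeq stranded mRNA) of 10 SH-SY5Y libraries was analysed from 2 tables of FPKM that the authors deposited, 1 for siRNA and 1 for miRNA libraries, with other text columns. Per the submitters' processing notes, TopHat 1.0.0, Cufflinks and hg19 were used; the annotation and strand setting were not given in the sources used here. Of 25275 rows per table, 1304 lay off the assembled chromosomes and were dropped. The 548 names on several rows were reduced to the row with the highest mean, leaving 23585 genes, of which 23416 (siRNA) and 23426 (miRNA) had a value in every library; the others held status words. The lowest value, 0.001, stood in place of 0, and FPKM moves when a few transcripts dominate a library. log2(FPKM + 1) was fitted with limma 3.58.1 (trend) in R 4.3.3, 1 table at a time, over genes whose mean reached 1 FPKM (12601 and 12558), with 2-sided tests, Benjamini-Hochberg adjustment and a threshold of 0.05; the script was tested on simulated data. Alternatives were a pseudocount of 0.1, no filter, median-ratio and quantile scaling, leaving out each library and a replicate block. Replicate numbers were not used as pairs. Named were the 5 genes, up to 4 called genes per list with the largest change and a few defining ones, nearest neighbours and most alike profiles; a gene that this rule names is not reported here. The 5 genes and the lists were chosen with earlier results of these data known.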

Additional observations from a re-analysis of the deposited data

How the results depend on the processing

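The direction of all 5 genes was the same under every alternative run, in both comparisons and between the controls. With LncND siRNA, the log2 difference without 1 library ranged from 3.47 to 3.65 for PRAP1, 2.62 to 2.67 for CRYM, 2.30 to 2.34 for ARHGAP36, 2.20 to 2.26 for CILP2 and 1.61 to 1.71 for DCN. A pseudocount of 0.1 gave 3.93 for PRAP1, 2.89 for CRYM, 2.41 for ARHGAP36 and 2.84 for CILP2, and quantile normalization gave 2.59 for CRYM and 2.15 for CILP2. With the mimic, the differences without 1 library ranged from -0.68 to -0.50 for PRAP1, -0.70 to -0.48 for CRYM, -0.27 to -0.16 for ARHGAP36, -0.38 to -0.23 for CILP2 and -0.56 to -0.43 for DCN. Without a filter on low levels CRYM (-0.59), ARHGAP36 (-0.21) and CILP2 (-0.31) did not pass by limma, and ARHGAP36 did not pass with median-ratio scaling (-0.14) or quantile normalization (-0.14); the causes were not tested. Between the controls, a pseudocount of 0.1 gave 1.65 for PRAP1, 0.44 for CRYM and 1.22 for CILP2, median-ratio scaling gave 0.33 for CRYM, and quantile normalization gave 0.29 for CRYM and 0.73 for CILP2.

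Over all genes the mimic raised 3094 and lowered 4853 genes; with median-ratio scaling these counts were 3931 and 4052, and with quantile normalization 4145 and 3854. LncND siRNA raised 4613 and lowered 3818 genes, against 4026 and 4658 with quantile normalization. With a replicate block 8022 genes were called with LncND siRNA and 8247 with the mimic, against 8431 and 7947 without it. Deviations of same-numbered siRNA libraries had correlations of 0.068, 0.207 and -0.053, and those of unlike number ran from -0.159 to 0.078. In the mimic comparison same-numbered libraries had 0.135. Such values cannot show whether libraries of the same number shared a culture or a day. Depth, known only as an estimate, limits CILP2 most.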
